A study of Mus musculus with 4 samples.

Results

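Spermatogonial stem cells (SSCs) are rare in the testis and are enriched by antibodies against proteins on their surface. Transcripts of 8 such proteins were measured in SSC culture, namely Itga6, Itgb1, Cd9, Tspan8, Epcam, Mcam, Cd24a and Adgra3. They were chosen by gene symbol, and all 8 were found among the 55421 genes of the count table. After NRRA treatment 6 of the 8 were lower, Adgra3 was higher, and no difference was called for Itga6. Of all 20232 genes tested 28.4% were lower and 27.9% higher (edgeR quasi-likelihood test, adjusted p under 0.05). The falls were unequal. Tspan8 fell 22.3-fold, Mcam, Cd9 and Cd24a fell between 2.08-fold and 2.36-fold, and Itgb1 and Epcam fell by less than the others.

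The samples were spermatogonia cultured from CD1 mice, which the study grew from the testes of pups on irradiated fibroblast feeder cells of another mouse stock. The Veh group (2 libraries) stayed in complete culture medium. The NRRA group (2 libraries) received nutrient restriction medium, in which Earle's balanced salt solution replaced most of the complete medium, together with retinoic acid (RA). The labels give N2 and 10 ng/ml each of bFGF and GDNF for all 4 libraries, while the study's recipe replaces most of the medium and names no growth factors added back. Nutrients and RA changed together, and their effects, and that of any dilution of growth factors, cannot be told apart here. In such bulk RNA, a smaller number of expressing cells and less RNA per cell also cannot be told apart.

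The surface proteins fall into several families. Integrins are pairs of an alpha and a beta chain that bind the matrix outside the cell. The pair of integrin alpha6 (Itga6) and beta1 (Itgb1) is a receptor for laminin, a protein of the basement membrane on which spermatogonia sit. CD9 (Cd9) and TSPAN8 (Tspan8) are tetraspanins, small proteins that span the membrane repeatedly and gather integrins and other partners around them. EPCAM (Epcam) and MCAM (Mcam) are adhesion proteins with a single membrane span, CD24 (Cd24a) is a small, heavily glycosylated protein held by a lipid anchor, and ADGRA3 (Adgra3, also known as GPR125) belongs to the adhesion G protein-coupled receptors.

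The stretches before the RefSeq gene starts of Tspan8, Cd9 and Adgra3 are shown because these genes gave the strongest fall, a fall of intermediate size and the rise. They are RefSeq sequences (GRCm38.p6) without exonic bases, and they run 5′ to 3′ on the strand of the gene. The Tspan8 stretch is chr10:115817034-115817270 (plus strand), that of Cd9 is chr6:125494792-125495010 (minus strand) and that of Adgra3 is chr5:50059007-50059246 (minus strand). GENCODE annotates a further Tspan8 start upstream, at 115816832, so the Tspan8 stretch lies inside the GENCODE gene, between its annotated exons. Capitals mark a GC box (GGGCGG) or an ETS core (CCGGAA) on either strand.
Tspan8: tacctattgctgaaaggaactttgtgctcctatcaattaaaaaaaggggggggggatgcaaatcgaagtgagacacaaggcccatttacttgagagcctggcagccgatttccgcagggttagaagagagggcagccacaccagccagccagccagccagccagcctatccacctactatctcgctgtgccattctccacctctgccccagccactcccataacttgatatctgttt
Cd9: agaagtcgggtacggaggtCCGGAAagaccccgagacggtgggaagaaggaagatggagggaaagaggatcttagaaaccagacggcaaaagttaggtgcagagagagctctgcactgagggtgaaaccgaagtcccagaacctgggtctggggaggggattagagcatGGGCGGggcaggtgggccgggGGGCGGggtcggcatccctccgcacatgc
Adgra3: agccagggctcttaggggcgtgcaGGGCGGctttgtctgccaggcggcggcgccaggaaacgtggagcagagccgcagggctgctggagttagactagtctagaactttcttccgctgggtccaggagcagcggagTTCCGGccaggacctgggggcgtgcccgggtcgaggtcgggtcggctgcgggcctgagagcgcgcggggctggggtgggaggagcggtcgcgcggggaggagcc
Both motifs were absent from the Tspan8 window, whereas Cd9 held 2 GC boxes and 1 ETS core and Adgra3 held 1 of each.

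RefSeq gave a gene start for 6 of the 8 genes, all but Itga6 and Cd24a, and the 250 bases before each start were searched on both strands. A GC box was present in 5 of the 6 windows, and Mcam held 5 copies. Among all 32851 windows of this length 32.7% held a GC box and 12% an ETS core. The share of G and C ran from 52.4% in Tspan8, equal to the median of all windows, to 73.6% in Mcam. The half-site of retinoic acid receptors (AGGTCA, in 14% of all windows) and the TATA box (TATAAA, in 12.4%) were in 0 of the 6 windows. The motif reported for STRA8 (CNCCTCAG, in 6.42%) was present in that of Itgb1 alone. These matches are descriptions of letters in a short window, and binding was not measured.

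The libraries held between 28022265 and 31604769 counts, and a count of 3 corresponded to at most 0.111 CPM (counts scaled to equal library size with TMM factors). Stra8, a direct target of RA, rose from 261 and 300 counts to 60702 and 55775. Across all tested genes 56.4% were called in either direction, so that a call by itself was common. Falls of at least 2-fold were called for 7.02% of the genes. The study describes its sequencing replicates as independent biological ones, their cultures or mice of origin are not labelled, and the p-values measure the spread between these libraries. The germ cell markers Ddx4 and Dazl were abundant in both groups, at 270 and 662 CPM in Veh and 275 and 738 CPM in NRRA.

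**Figure D1:**
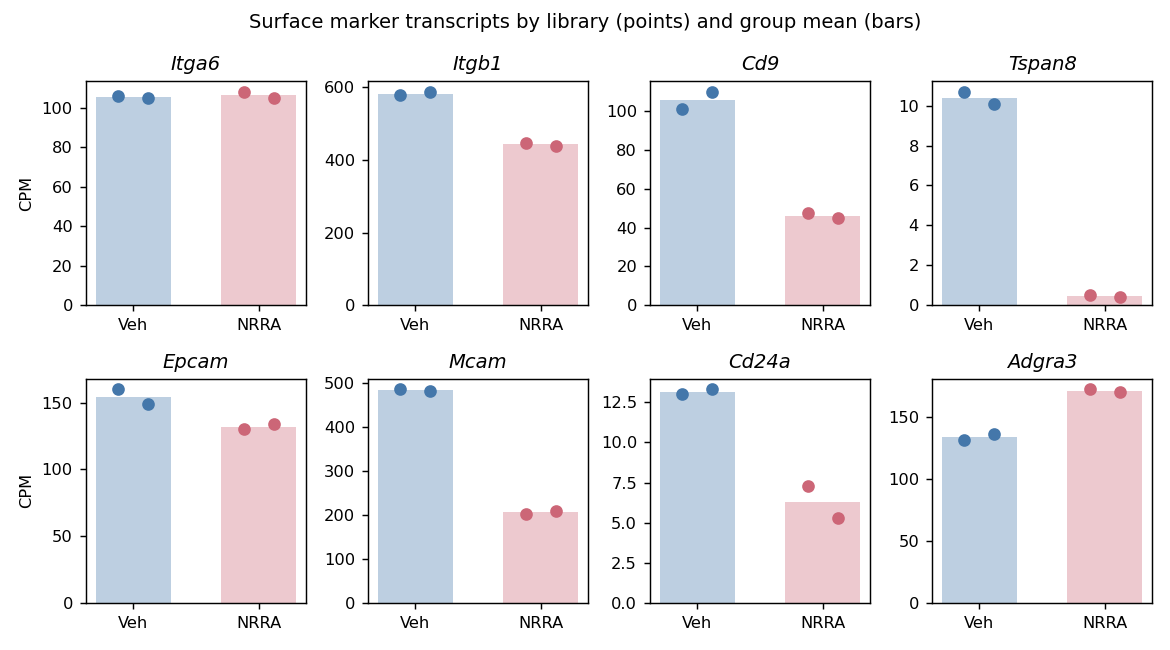
Levels of the 8 surface marker transcripts in CPM (y axes from 0). Points are the 2 libraries of each group and bars their mean. The groups overlap for Itga6 alone on this scale, and Tspan8 is at 0.491 and 0.432 CPM in the NRRA libraries. Across all tested genes 56.4% were called, and the share with separate groups was not counted.

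The receptor for laminin was examined first. Itga6 (ENSMUSG00000027111, GRCm38 chromosome 2, 71745616 to 71858416, plus strand) was counted 2886 and 3115 times in the Veh libraries and 3509 and 3159 times in the NRRA libraries. This was 106 and 105 CPM in Veh and 108 and 105 CPM in NRRA, so the groups overlapped. The log2 fold change was 0.011 (SE 0.0372, edgeR adjusted p 0.823), with a 95% interval from -4.43% to 6.29% of the Veh level. Gm29397, which shares near-identical stretches with 7.56% of its longest transcript, had at most 6 counts in a library. With scaling by library size only the log2 fold change of Itga6 was 0.10 and past the threshold (edgeR adjusted p 0.0225).

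Itgb1, the partner that most integrin alpha chains share, was the most abundant of the 8 transcripts in CPM. The gene (ENSMUSG00000025809, chromosome 8, 128685654 to 128733200, plus strand) was at 578 and 588 CPM in Veh and at 448 and 438 CPM in NRRA. Both NRRA libraries lay under both Veh libraries, and Itgb1 fell by 24.1% (log2 fold change -0.40, SE 0.0243, edgeR adjusted p 1.76e-13). Its 95% interval, -0.45 to -0.35, did not overlap that of Itga6 (-0.065 to 0.088). Per length, the ratio of Itga6 to Itgb1 was 0.0832 and 0.0805 in Veh and 0.109 and 0.108 in NRRA. Itgb4, the other beta chain that pairs with alpha6, rose from 188 and 166 counts to 305 and 265 (log2 fold change 0.54, SE 0.131, edgeR adjusted p 0.000894), and per length Itga6 was 11.9 and 14.6 times as abundant in Veh and 8.94 and 9.27 times in NRRA.

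Of the 24 other integrin subunits, 20 passed the filter on low counts, 4 rose and 7 fell. The shares of all tested genes were 27.9% and 28.4%. The median log2 fold change of these subunits was -0.057, against 0.00029 over all tested genes. The sign of this median turned to 0.032 with library size only, and to 0.061 and 0.054 without Veh replicate 1 or NRRA replicate 2. Among the alpha chains that pair with beta1, Itga3, another laminin receptor chain, rose from 68 to 102 CPM (log2 fold change 0.59, SE 0.0414) and Itga9 rose from 12.5 to 25.4 CPM (1.02, SE 0.0859). Itga5, the fibronectin receptor chain, fell from 110 to 48.6 CPM (-1.18, SE 0.0427) and Itga2, a collagen receptor chain, from 10.9 to 5.56 CPM (-0.97, SE 0.128). Itgb5 fell from 201 to 106 CPM (-0.92, SE 0.0348), and the largest fall was that of Itgb7 (-1.50, SE 0.147). The edgeR adjusted p-values of these 6 genes lay between 3.04e-18 and 3.3e-07.

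Laminin chains, the ligands of alpha6beta1, moved both ways. Of 11 chains 10 were tested, 4 were higher and 4 lower, against 27.9% and 28.4% of all tested genes. The median of the chains, -0.030, changed sign with library size only (0.059) and without Veh replicate 1 (0.050). Lama5 rose from 226 to 269 CPM (log2 fold change 0.25, SE 0.0289, edgeR adjusted p 4.4e-08) and Lama1 from 5.87 to 10.3 CPM (0.82, SE 0.122, edgeR adjusted p 2.32e-06). Lamb1 and Lamc1, chains of the same trimers, fell from 372 to 322 CPM and from 195 to 152 CPM (log2 fold changes -0.21 and -0.36). Fibroblast feeders also make laminins, and which cells held these transcripts was not measured. Of 17 adaptors that tie integrins to actin and signalling, 16 were tested, 7 rose and 6 fell. Their median was 0.041, and it was 0.13 with library size only and 0.076 without NRRA replicate 1. Talin 1 (Tln1), which switches integrins on, was at 399 and 396 CPM (log2 fold change -0.011, edgeR adjusted p 0.739). Parva rose (0.50) and Tns3 fell (-0.70). Ilk (0.39) shares 89.7% of its exonic bases with genes on the other strand, and without knowing whether strand was used in counting its level is uncertain.

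The tetraspanin Tspan8 showed the largest change of the 8 genes. TSPAN8 has been used to separate spermatogonia that are rich in transplantable stem cells. Its gene (ENSMUSG00000034127, chromosome 10, 115816832 to 115849893, plus strand) gave 290 and 301 reads in the Veh libraries but 16 and 13 in the NRRA libraries. Its level was 10.7 and 10.1 CPM in Veh and 0.491 and 0.432 CPM in NRRA. The log2 fold change was -4.48 (SE 0.207, edgeR adjusted p 5.43e-16), with a 95% interval from -4.90 to -4.05. A more negative log2 fold change was found for 50 of the 20232 genes tested.

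Cd9 was lower by a smaller factor from a higher level. CD9 marks spermatogonial stem cells of several species but is also present on many other cells, fibroblasts included. The gene (ENSMUSG00000030342, chromosome 6, 125460266 to 125494791, minus strand) was at 101 and 110 CPM in Veh and 47.4 and 44.8 CPM in NRRA. The groups did not overlap, and the log2 fold change was -1.19 (SE 0.048, edgeR adjusted p 2.78e-17). Gm26728, which overlaps 10.7% of the exonic bases of Cd9 on the opposite strand, moved likewise (-1.21), and its reads cannot be told from those of Cd9 unless strand was used in counting. It had 323 and 363 counts in Veh, against 2743 and 3262 for Cd9.

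Other tetraspanins moved both ways. Of 29 other tetraspanins 25 were tested, 7 rose and 12 fell (median log2 fold change -0.23). Among all tested genes 27.9% rose and 28.4% fell. The tetraspanin median was -0.34 without Veh replicate 1, -0.082 without Veh replicate 2 and -0.14 with library size only. Tspan9 rose from 65.2 to 145 CPM (1.15, SE 0.0391, edgeR adjusted p 6.97e-19), whereas Tspan11 fell from 15.2 to 5.09 CPM (-1.58, SE 0.117, edgeR adjusted p 8.8e-12). Cd81, the closest relative of CD9, was at 236 CPM in Veh and 251 CPM in NRRA (log2 fold change 0.095, SE 0.0293, edgeR adjusted p 0.00761). The ratio of Cd9 to Cd81 per length was 0.592 and 0.67 in Veh and 0.265 and 0.252 in NRRA. The tetraspanins Cd151 and Cd63 fell by less than Cd9 (-0.39 and -0.54), and 21.8% of the longest Cd63 transcript has near-identical stretches elsewhere.

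**Figure D2:**
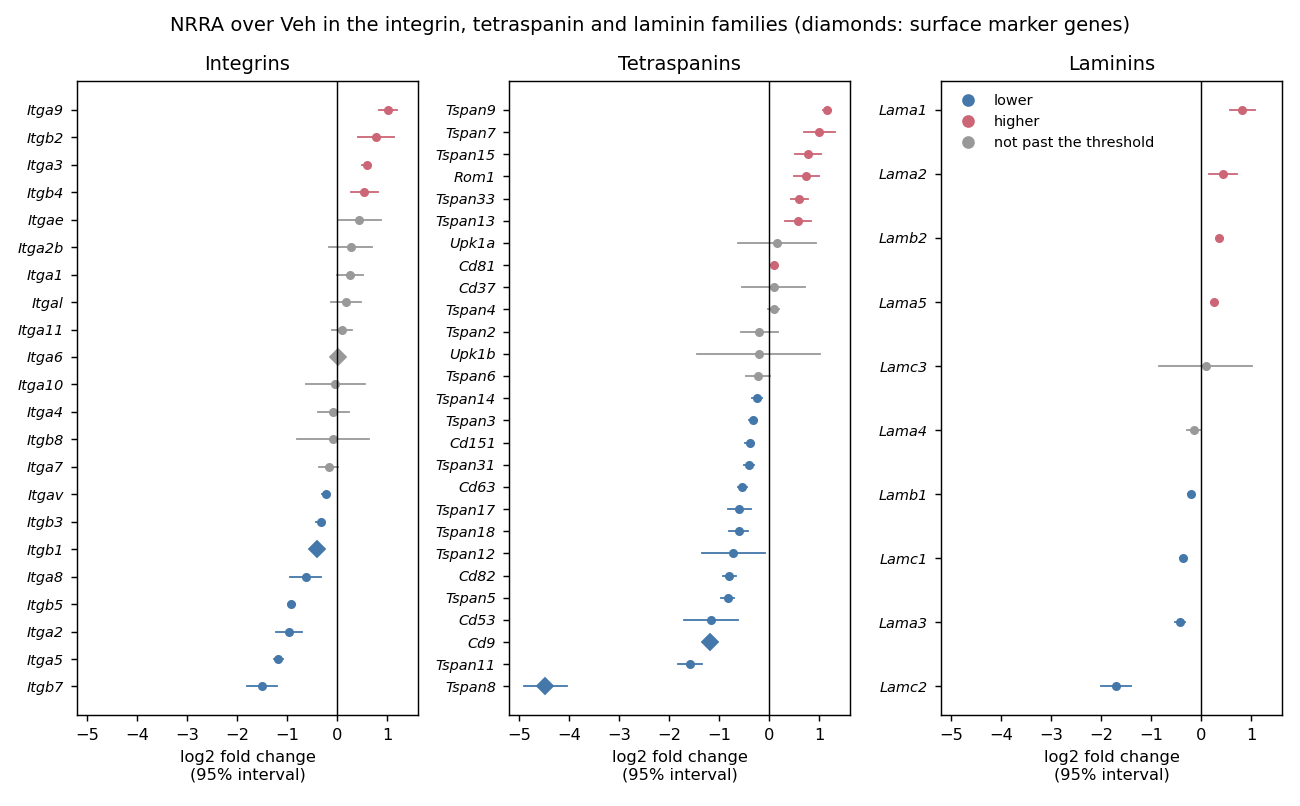
Log2 fold change (NRRA over Veh, x axis) of the tested integrin subunits, tetraspanins and laminin chains, with 95% intervals from the edgeR fit and genes sorted by value. Diamonds mark Itga6, Itgb1, Cd9 and Tspan8, and Tspan8 at -4.48 stands apart from the other tetraspanins, which lie between -1.58 and 1.15.

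Partners that CD9 and EPCAM hold in the membrane were examined next. Of 7 partners 6 were tested, 5 were lower, where 28.4% of all tested genes were, and 0 were higher, also at an unadjusted p under 0.05 and with DESeq2. Cldn1 was not called (log2 fold change 0.18, edgeR adjusted p 0.809). Ptgfrn and Igsf8, immunoglobulin proteins that bind CD9 directly, fell from 197 to 110 CPM and from 77.6 to 50.8 CPM (log2 fold changes -0.83 and -0.61, edgeR adjusted p 1.28e-17 and 1.38e-10). Cd44, the hyaluronan receptor, fell from 143 to 74.7 CPM (-0.94, edgeR adjusted p 1.18e-16). Of the claudins, which seal contacts between epithelial cells, Cldn3 and Cldn4 were rare and fell from 31 and 34 counts to 4 and 5, and from 56 and 68 counts to 20 and 19. Cldn7, the claudin known to bind EPCAM, had between 6 and 16 counts in each library and was not tested.

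The adhesion proteins Mcam and Epcam differed in their response. Mcam (ENSMUSG00000032135, chromosome 9, 44134469 to 44142727, plus strand) was counted 13195 and 14367 times in Veh against 6601 and 6290 times in NRRA. Its 486 and 483 CPM in Veh and 203 and 209 CPM in NRRA did not overlap, and the log2 fold change was -1.24 (SE 0.0269, edgeR adjusted p 5.59e-23). Epcam (ENSMUSG00000045394, chromosome 17, 87635979 to 87651129, plus strand) was at 160 and 149 CPM in Veh and at 130 and 134 CPM in NRRA. The groups were again separate, but the log2 fold change was -0.23 (SE 0.0365, edgeR adjusted p 6.62e-06), a fall by 14.6%. The 95% intervals of the log2 fold changes, -1.29 to -1.18 for Mcam and -0.30 to -0.15 for Epcam, did not overlap.

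MCAM is also a protein of blood vessels, and markers of endothelial cells were therefore examined. Of 5, all tested, 3 were lower (Pecam1, Kdr and Vwf) and 0 higher, against 28.4% and 27.9% of all tested genes. The counts of these markers were the same at an unadjusted p under 0.05 and with DESeq2. The summed level of the 5 markers went from 25.3 and 26.8 CPM in Veh to 8.2 and 8.24 CPM in NRRA, and 0 of the 5 were at 0. Cdh5, a defining marker, was at 2.31 CPM in Veh and 1.67 CPM in NRRA (log2 fold change -0.46, edgeR adjusted p 0.109), and Tek at 0.769 and 1.1 CPM (0.51, edgeR adjusted p 0.233). Their part in the Mcam result was not tested. Of 5 relatives of Epcam, Mcam and Adgra3, 4 were tested, 3 rose and 1 fell (median 0.80). Alcam, the one that fell, went from 69.1 to 36.2 CPM (log2 fold change -0.93, edgeR adjusted p 5.09e-14) and Bcam, a receptor for laminin alpha5, rose from 5.34 to 9.09 CPM (0.77, edgeR adjusted p 1.5e-05).

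Cd24a (ENSMUSG00000047139, chromosome 10, 43578284 to 43584265, plus strand) was the least abundant of the 8 in Veh per length, and its NRRA replicates were the least alike. It was counted 353 and 397 times in Veh and 238 and 159 times in NRRA. The levels were 13.0 and 13.3 CPM in Veh and 7.31 and 5.28 CPM in NRRA, and the log2 fold change was -1.06 (SE 0.127, edgeR adjusted p 6.72e-08). The change depended on the NRRA library used, at -0.85 without NRRA replicate 2 and -1.31 without NRRA replicate 1. Near-identical stretches in Gm6212 cover 11.9% of its longest transcript, but Gm6212 had at most 3 counts in a library.

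Adgra3 was the single member that rose. GPR125 has been used as a marker of spermatogonial progenitors that can be grown in culture. The gene (ENSMUSG00000029090, chromosome 5, 49959956 to 50059006, minus strand) was counted 3543 and 4040 times in Veh and 5616 and 5109 times in NRRA. At 131 and 136 CPM against 172 and 170 CPM both NRRA libraries were above both Veh libraries, and the log2 fold change was 0.36 (SE 0.0333, edgeR adjusted p 6.12e-10), or 28.4%. The other genes of its subfamily also rose, Adgra2, a receptor of Wnt7 signalling, from 53.7 to 95.1 CPM (0.82, edgeR adjusted p 8.39e-15) and Adgra1 from 4 and 5 to 34 and 19 counts (2.38, edgeR adjusted p 0.000517).

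**Figure D3:**
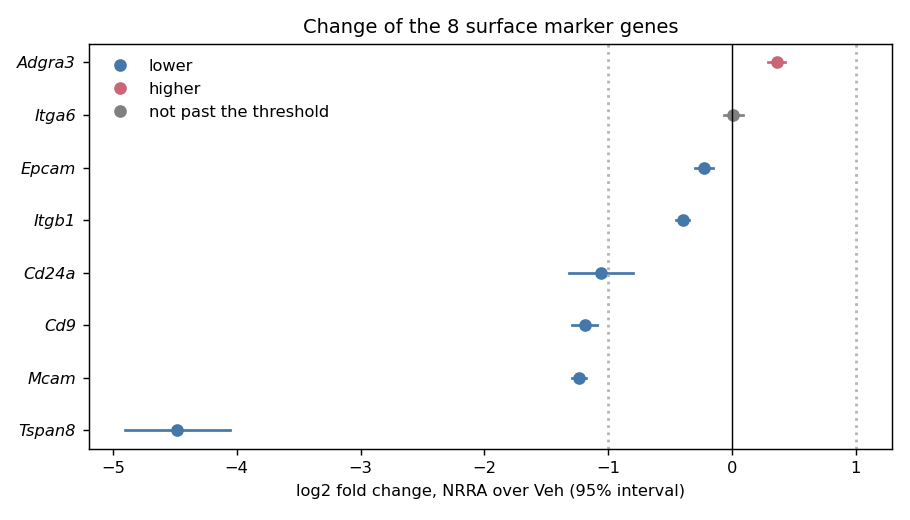
Log2 fold change of each surface marker gene (NRRA over Veh, x axis) with its 95% interval from the edgeR fit, sorted by value. Dotted lines mark a 2-fold change. Tspan8, Mcam, Cd9 and Cd24a lie below the lower one, which the interval of Cd24a (-1.32 to -0.80) crosses.

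Read against all genes, 6 of 8 members were lower where 28.4% of tested genes were, and 4 of 8 were lower by at least 2-fold where 7.02% were. The median log2 fold change of the 8 was -0.73, against 0.00029 over all tested genes. Cd24a fell short of 2-fold with library size only (-0.97) and without NRRA replicate 2. Its 95% interval, -1.32 to -0.80, included falls of less than 2-fold. All members but Itga6 kept their direction and call under all 11 alternatives. Itga6 was called higher with library size only, and its uncalled value was -0.0023 without Veh replicate 2 and -0.0036 without NRRA replicate 1.

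Levels of different genes were compared per length, as counts per kilobase of merged exons scaled to equal library totals. Levels, ratios between genes and their order on this scale depend on the length used. Merged exons span 9025 bases in Itga6, 8113 in Adgra3 and 2044 in Cd9, against 4310, 4480 and 1228 in the longest transcript. For Epcam the lengths are closer (2195 and 2040), and the order with other lengths was not computed. In Veh the order was Mcam (501), Itgb1 (495), Epcam (244), Cd9 (179), Adgra3 (56.9), Itga6 (40.5), Tspan8 (21.2) and Cd24a (17.7). No neighbours in this order overlapped between libraries. The closest, Mcam (499 to 502) and Itgb1 (490 to 499), meet at 499 after rounding, so their order is uncertain. In NRRA the order became Itgb1 (410), Mcam (232), Epcam (227), Cd9 (85.3), Adgra3 (79.7), Itga6 (44.6), Cd24a (9.22) and Tspan8 (1.03), and Mcam and Epcam overlapped. On this scale Tspan8 was above 59.3% of the tested genes in Veh and above 10.2% in NRRA. Itgb1 was above 99% and 98.8%, so that it remained among the most abundant transcripts. The per-length scale carries no TMM factor, as in the alternative with library size only.

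**Figure D4:**
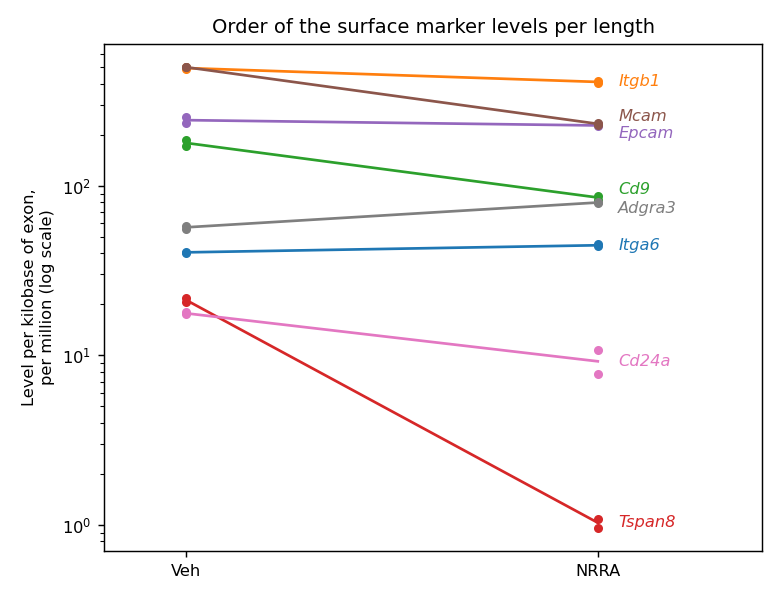
Level per kilobase of exon at equal library totals (y axis, log scale), of the 8 surface marker genes in Veh and NRRA. Points are libraries and lines join the group means. Tspan8 went from 21.2 to 1.03. The lines of Mcam, Cd9, Cd24a, Itgb1 and Epcam also fall, and those of Adgra3 and Itga6 rise.

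Other surface proteins used to enrich SSCs were compared as a list. Of 7, all tested, 5 fell and 1 rose (median log2 fold change -0.92), where 28.4% of all tested genes fell and 27.9% rose. The GDNF receptor chains Ret and Gfra1 fell from 452 to 64.1 CPM and from 153 to 58.7 CPM (log2 fold changes -2.82 and -1.38). Thy1, used in many SSC sorts but also a fibroblast protein, fell from 46 to 24.2 CPM (-0.92), Cdh1, which encodes E-cadherin, from 35 to 19.3 CPM (-0.86) and Cxcr4, a chemokine receptor, from 15.4 to 2.67 CPM (-2.53). Ncam1 rose from 31.8 to 42 CPM (0.40). The edgeR adjusted p-values of these 6 genes lay between 5.6e-29 and 7.54e-06.

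Proteins used to exclude cells from such sorts were led by Kit. Kit, the receptor of differentiating spermatogonia, was counted 283 and 328 times in Veh and 16672 and 15685 times in NRRA (log2 fold change 5.59, SE 0.0418, edgeR adjusted p 6.42e-33). Per length, the ratio of Kit to Itga6 was 0.0993 and 0.107 in Veh and 4.81 and 5.03 in NRRA. Ly6a, which encodes the surface antigen Sca-1, fell from 16 to 9.11 CPM (-0.81, edgeR adjusted p 2.76e-07) and integrin alphaV (Itgav) from 119 to 102 CPM (-0.23). The class I chain H2-K1 rose from 83.4 to 146 CPM (0.81), and B2m was at 287 CPM in both groups. Of the 7 genes in this list, all tested, 3 were higher and 2 lower, against 27.9% and 28.4% of all tested genes.

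Markers of cell state and cell type differed in direction, where 28.4% of all tested genes were lower and 27.9% higher. All 8 markers of undifferentiated spermatogonia, which include Ret, Gfra1 and Lhx1, were lower (median -2.80), and all 5 of differentiating spermatogonia were higher (median 0.94). Of 8 general germ cell markers 3 were higher and 4 lower, and their summed level lay between 1874 and 1948 CPM in Veh and was 1968 and 1971 CPM in NRRA. Of 13 fibroblast feeder markers 2 were higher and 10 lower (median -0.19, or -0.10 with library size only), and 7 were lower with DESeq2. Their summed level went from 9935 and 9852 CPM in Veh to 7819 and 7655 CPM in NRRA. Most of this sum was Fn1, which encodes fibronectin and fell from 6115 to 4357 CPM, and Vim (vimentin) fell from 680 to 431 CPM. The rarer Lum fell from 12.8 to 4.73 CPM (log2 fold change -1.43, edgeR adjusted p 4.3e-10) and S100a4 from 0.967 to 0.474 CPM (-1.01, edgeR adjusted p 0.038, not called with DESeq2). Col1a1 was at 1233 and 1153 CPM (-0.10, not called with DESeq2), while Col3a1 rose from 244 to 373 CPM and Pdgfra from 21.6 to 42.6 CPM. No feeder marker was at 0. Itgb1, Cd9 and Thy1 are known in fibroblasts too, and the part of the feeder cells in their falls was not tested.

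The 3 genes with the most similar centred log2 CPM over the 4 libraries were sought among 11326 genes, and they are given for 6 of the members. Tspan8 was nearest to Lhx1 (distance 0.0802, log2 fold change -4.27), Egr2 (0.155, -4.26) and Sphk1 (0.182, -4.44). Cd9 was nearest to Inhba (distance 0.0194), Smad7 (0.0304) and Gpm6b (0.0371). Epcam was nearest to Lrp11, Pex10 and Rps6, Itga6 to Mrpl37, Ubxn4 and Sh3kbp1, and Cd24a to Mid2, Trub1 and Lpar1. Adgra3 was nearest to Sdf2l1, Lamb2 and Ddx17, with distances from 0.00519 to 0.00817.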

How the data were processed

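Poly(A) RNA of 4 libraries of CD1 spermatogonia (2 Veh, 2 NRRA) was analysed. The authors deposited raw counts per gene, whole numbers for 55421 genes, and the submitters' processing notes name bcl2fastq, STAR 2.6.1c, featureCounts 1.6.4 and mm10. The study's methods describe a stranded library, while the labels also name a TruSeq RNA kit. The annotation and the strand setting used in counting are not given in the sources used here. The table's columns were matched to samples by the labels' descriptions. Coordinates and lengths came from GENCODE M21 (GRCm38), which held 99.7% of the gene identifiers. Stretches were called near-identical from 95% identity and 100 aligned bases upwards (BLAST).

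Counts were tested in edgeR 4.0.16 (R 4.3.3) with filterByExpr, TMM, a robust quasi-likelihood fit and Benjamini-Hochberg adjustment over all tested genes (threshold 0.05). Log2 fold changes are NRRA over Veh. SE values and 95% intervals derive from the F statistic. Log2 CPM used a prior count of 2. The study used DESeq2, which was run here as an alternative (1.42.0). The scripts were tested on simulated data.

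The members and the gene lists were chosen with earlier results of these data known. Named genes were the members, list members, Stra8 and the 3 nearest genes to each member among those averaging 3 or more in log2 CPM. Gm6212, Gm26728 and Gm29397 were added after their values were seen. The nearest genes of Itgb1 and Mcam are not reported here, and listed genes without a value in the text enter the counts and medians only. Replicates agreed closely (r 0.993 and 0.994) but differed by more than sampling noise (chi-square per degree of freedom 2.45 and 1.99). Intervals cover counting error and the spread between libraries only, since PCR copies were not told apart.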

Additional observations from a re-analysis of the deposited data

How the results depend on the processing

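Of the 11 alternatives, 7 changed the scaling, filter, test or block and 4 left out a library. The numbers of called genes stayed within 1.5 times those reported, but library size only gave 6962 higher and 4593 lower genes, against 5654 and 5752. With library size only 2 members were higher, since Itga6 was called (0.10). Without one library Itga6 ranged from -0.0036 to 0.029. The other 7 members kept direction and call in all 11 alternatives. The replicate numbers did not pair the samples (correlation of deviations -0.0106), and with the replicate block 1 member was again higher and 6 lower, with 5772 higher and 5836 lower genes. In fits without one library the lone library of a group is assumed to vary like the others.

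Most list medians that changed sign were small, and that of the Leydig cell markers was 0.12 over 2 tested genes. With library size only the medians that changed sign were 0.032 (other integrins), 0.059 (laminins) and 0.054 (germ cell markers). Without one library they ranged from -0.10 to 0.061 (other integrins), -0.11 to 0.050 (laminins), -0.071 to 0.0041 (germ cell markers), -0.24 to 0.31 (Leydig cell markers) and -0.10 to 0.10 (negative selection markers, single values -0.10 and -0.034 below 0). The Leydig median was -0.15 with no filter on low counts and with DESeq2, where more genes entered. Of 187 list medians 148 moved by less than the spread between library pairs and 26 by more with the same sign. Among the latter, those that moved by over 1.5 times were tetraspanins (-0.14 with library size only, -0.082 without Veh replicate 2), adaptors (0.13 with library size only, 0.075 with no filter, 0.073 with DESeq2, 0.076 without NRRA replicate 1), feeder markers (-0.10 with library size only), laminins (-0.14 with no filter and with DESeq2, -0.15 at a mean CPM of at least 1) and negative selection markers (0.16 at that minimum). With DESeq2 fewer calls were made among laminins (3 higher), tetraspanins (11 lower), germ cell markers (2 higher, 3 lower), feeder markers (7 lower), myoid markers (2 lower) and Leydig markers (0). The cause was not tested.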

Other observations

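Markers of other testis cells were measured as well, and of all tested genes 28.4% were lower and 27.9% higher. Of 8 Sertoli cell markers 4 were tested and 1, Sox9, was lower (28.2 to 9.38 CPM), while Fshr had 0 counts in all libraries and Amh at most 3. Leydig cell markers summed to between 7.56 and 9.58 CPM, with 1 of 2 tested markers higher (Star, log2 fold change 0.31, edgeR adjusted p 0.0317, not called with DESeq2). Of 4 peritubular myoid markers 3 were lower (2 with DESeq2), among them Acta2 (88.2 to 64.1 CPM). Of 6 macrophage markers 5 were tested and Cd68 was lower (-0.86), while Ptprc had at most 12 counts in a library.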
